A study of Mus musculus with 15 samples.

Results

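The 10 genes described here encode secreted factors through which 4T1 mammary tumors act on myeloid cells: the colony-stimulating factors Csf1, Csf2 and Csf3, the cytokines Il6 and Il1a, and the chemokines Cxcl1, Cxcl5, Ccl2, Ccl7 and Ccl20. They were taken by symbol from the 40402 genes of a bulk RNA-seq count table, and all 10 were found there. 4T1 is a mouse triple-negative mammary carcinoma cell line, labelled wild type and grown here in culture. The conditions were untreated cells and cells given blackberry extract (BLA), blueberry extract (BLU), or gold nanoparticles made with the blackberry extract (BLA-A) or the blueberry extract (BLU-A), 24 hours after seeding. No gold without berry extract was among these conditions. Each condition had 3 deposited columns whose differences were smaller than counting noise (chi-square per degree of freedom from 0.0951 to 0.475), so they were averaged and counted as 1 library. A fold change below therefore compares 2 libraries and has no replicate check. The labels give every sample its own batch date, so date and treatment cannot be told apart.

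Colony-stimulating factors are growth and survival signals for the myeloid lineages. Csf1 (M-CSF) maintains monocytes and macrophages, Csf2 (GM-CSF) acts on granulocytes, macrophages and dendritic cells, and Csf3 (G-CSF) drives the production and release of neutrophils, an excess of which is a known feature of mice that bear 4T1 tumors. Chemokines steer the cells that carry their receptors: Cxcl1 and Cxcl5 attract neutrophils through Cxcr2, Ccl2 and Ccl7 attract monocytes through Ccr2, and Ccl20 attracts Ccr6-bearing lymphocytes and dendritic cells. Transcription of many of these genes is induced through NF-κB, AP-1 and C/EBP factors, and their messages are often short-lived because of AU-rich elements in the 3′ untranslated region that are bound by decay factors such as tristetraprolin (Zfp36).

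The AU-rich elements were read from the canonical transcripts of GENCODE release M39 on GRCm39. The motifs searched were the pentamer ATTTA and the nonamer that places TT on both sides of it, so each nonamer holds a pentamer. The nonamer was present in 2 of the 10 genes, with 4 copies in Csf2 and 2 in Cxcl1, counted with overlaps. Of 20854 genes with a 3′ untranslated region, 8.34% had at least 1 copy and 2.06% at least 2. The 30 bases richest in the pentamer are shown, 5′ to 3′ on the transcribed strand with pentamers in capitals, for the 2 genes with the nonamer and for Csf3. These windows were chosen by the pentamer alone, and that of Cxcl1 holds no complete nonamer.
Csf2 (chr11:54138155-54138184, - strand): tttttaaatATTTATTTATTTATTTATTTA
Cxcl1 (chr5:91040461-91040490, + strand): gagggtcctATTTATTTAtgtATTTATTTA
Csf3 (chr11:98593810-98593839, + strand): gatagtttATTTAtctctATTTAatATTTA
Csf2 held 5 overlapping pentamers in this window, Cxcl1 held 4 and Csf3 held 3. Over the whole 3′ untranslated region the density was 28.4 pentamers per kb in Csf2, 11.8 in Cxcl1, 8.93 in Csf3 and 1.90 in Csf1, against a median of 1.27 over all genes.

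Promoter sequence was taken from RefSeq (build GRCm38.p6), which matched 6 of the 10 genes (Csf1, Csf2, Il6, Il1a, Cxcl1 and Ccl20), and was placed on GRCm39 by an exact match at 1 position of each gene's chromosome. The 250 bases before each start were searched on both strands for the κB site of NF-κB, for the AP-1 site TGANTCA and for the C/EBP site TTGCNNAA. For Csf2 this window (chr11:54140726-54140975) lay upstream of the GENCODE start at 54140493, so the bases next to that start were not searched. For Il1a the window (chr2:129151893-129152142, - strand) held the GENCODE start at 129152098. Its AP-1 site, 12 bases before the RefSeq start, therefore lay within the gene as annotated by GENCODE. The κB site was found in 4 of the 6 genes and in 7.25% of 32851 promoters, the AP-1 site in 2 (6.75%) and the C/EBP site in 2 (9.56%). The 4 genes with a κB site are shown from 250 to 31 bases before the start, on the transcribed strand, with sites in capitals, since Csf1 and Ccl20 were past a log2 fold change of 1 in the BLA-A library and Cxcl1 was not.
Csf1 (chr3:107667816-107668035, - strand): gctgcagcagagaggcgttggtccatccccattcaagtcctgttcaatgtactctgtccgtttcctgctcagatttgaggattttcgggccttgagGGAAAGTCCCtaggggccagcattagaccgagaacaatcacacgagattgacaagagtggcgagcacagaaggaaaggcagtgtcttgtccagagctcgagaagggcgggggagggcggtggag
Cxcl1 (chr5:91038854-91039073, + strand): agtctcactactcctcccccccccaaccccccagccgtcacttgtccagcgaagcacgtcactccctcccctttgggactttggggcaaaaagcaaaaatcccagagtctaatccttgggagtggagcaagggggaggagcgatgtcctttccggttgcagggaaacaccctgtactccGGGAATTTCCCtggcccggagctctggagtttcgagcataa
Ccl20 (chr1:83094237-83094456, + strand): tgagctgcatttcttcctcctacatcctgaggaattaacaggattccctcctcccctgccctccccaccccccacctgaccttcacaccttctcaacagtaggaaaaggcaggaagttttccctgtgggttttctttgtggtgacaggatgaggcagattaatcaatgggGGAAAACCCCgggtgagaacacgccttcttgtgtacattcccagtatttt
Il6 (chr5:30217862-30218081, + strand): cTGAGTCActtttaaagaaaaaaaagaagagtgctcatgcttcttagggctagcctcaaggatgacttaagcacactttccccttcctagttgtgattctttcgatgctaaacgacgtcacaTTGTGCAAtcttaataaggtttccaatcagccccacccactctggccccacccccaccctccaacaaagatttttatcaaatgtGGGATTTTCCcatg
The κB site began 154 bases before the start in Csf1, 80 in Ccl20 and 44 in Il6. In Cxcl1 a pair of overlapping matches began 71 and 70 bases before it. Il6 also held an AP-1 site 249 bases and a C/EBP site 128 bases before its start. A match is a description of these letters and not evidence of binding.

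The libraries were close in depth, from 25613778 to 26956442 counts, so that 3 counts corresponded to between 0.109 and 0.130 CPM (counts relative to library size, scaled by edgeR's TMM factors). The filter of at least 1 CPM in at least 1 library kept 17647 genes and 8 of the 10 factors, with Il6 and Ccl7 below it. Epithelial markers fitted the label, with 9 of 9 at 1 CPM or more and a summed level of 1028 to 1952 CPM that was highest in BLA-A, although Epcam was lowest there (39.7 CPM against 68.8 in untreated cells); their part in the results was not tested. Summed levels were 10.7 to 15.5 CPM for 7 macrophage markers (Lyz2 listed at 0 in every library), 0.508 to 2.32 for 5 neutrophil markers and at most 0.218 for 5 lymphocyte markers. The 4 fibroblast markers summed to 86.3 to 102 CPM, nearly all of it Pdgfra, with Lum and Thy1 at 0. Macrophage markers summed to 13.4 CPM in untreated cells and to 11.6 CPM in BLA-A.

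In untreated cells the neutrophil chemokines stood highest. On a scale of CPM per kb of exon, which allows genes to be compared, the levels were 73.5 for Cxcl1, 52.2 for Cxcl5, 47.0 for Csf3, 22.2 for Csf1, 15.6 for Il1a and 11.9 for Csf2. Ccl2 followed at 3.29, Ccl20 at 0.871 and Il6 at 0.355, and Ccl7 was at 0. The exact 95% counting intervals of neighbours in this order did not overlap. In BLA-A cells the order on this scale changed at the top, with Csf3 at 165, Cxcl1 at 86.6, Cxcl5 at 53.2 and Csf1 at 46.5 CPM per kb. Csf2 (24.5) and Ccl2 (23.9) were next to each other there, and their intervals overlapped. Exon length joins all annotated exons of a gene, 1881 bases for Cxcl1 and 1138 for Ccl2, where a single transcript has 959 and 813. For Csf3 (1416) and Csf2 (800) both lengths are the same. The BLA-A ranks of Cxcl1 beside Csf3 and of Ccl2 beside Csf2 therefore depend on the length used. Reads were counted on whole genes, so intronic reads are part of these levels. The 10 genes together took 504 CPM in untreated cells, 931 in BLA-A and between 434 and 496 in the other libraries. Intervals cover counting error only, and reads of copied molecules were not separated.

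**Figure D1:**
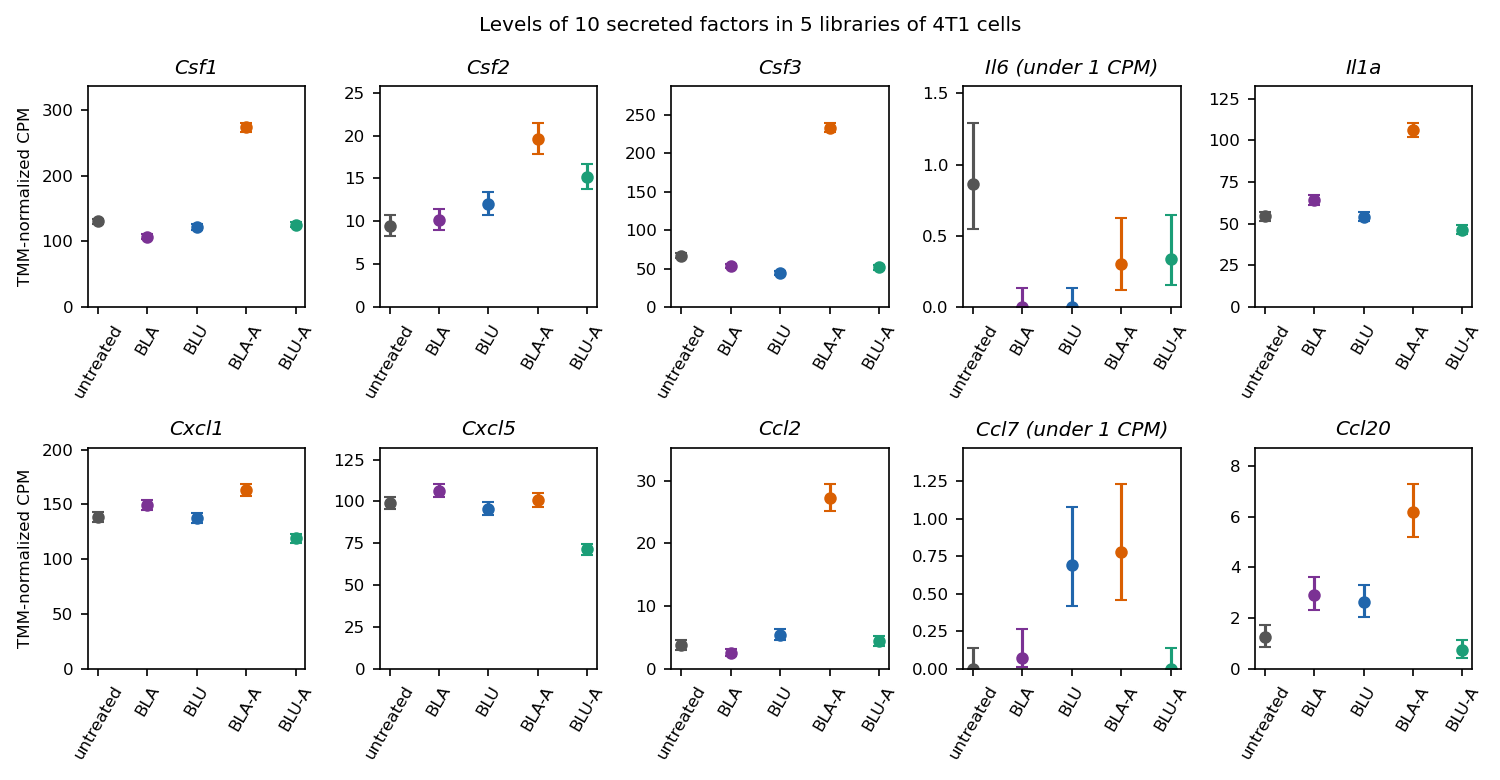
TMM-normalized CPM (y axis, linear from 0, scaled per gene) of the 10 factors in the 5 libraries (x axis), with bars for the exact 95% Poisson interval of the count. Csf1, Csf2, Csf3, Il1a, Ccl2 and Ccl20 are highest in BLA-A, where Csf3 reaches 233 CPM, while Cxcl1 and Cxcl5 vary little apart from the lower BLU-A values.

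Csf3 showed the largest change among the colony-stimulating factors (GRCm39 chr11:98592089-98594458, + strand). Its level was 66.5 CPM in untreated cells, 53.7 in BLA, 233 in BLA-A, 44.6 in BLU and 51.5 in BLU-A. Only the blackberry nanoparticle library lay above untreated cells, and the other treated libraries lay below them. In bulk RNA, more cells that express a factor and more of its RNA per cell cannot be told apart. The log2 fold change against untreated cells, on CPM plus 0.5, was 1.80 in BLA-A (95% counting interval 1.73 to 1.89), against -0.31 for BLA, -0.57 for BLU and -0.37 for BLU-A.

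Csf1 (chr3:107648364-107667806, - strand) was at 130 CPM in untreated cells, 107 in BLA, 274 in BLA-A, 122 in BLU and 125 in BLU-A. The BLA-A value gave a log2 fold change of 1.07 (1.01 to 1.13), and the other treatments were between -0.28 and -0.06. Csf2 (chr11:54138097-54140493, - strand) was at 9.49 CPM in untreated cells, 10.2 in BLA, 19.6 in BLA-A, 12.0 in BLU and 15.2 in BLU-A. It was thus the only factor of the 8 above untreated cells by more than 0.5 on the log2 scale in BLU-A, at 0.65 (0.45 to 0.91), beside 1.01 (0.82 to 1.27) in BLA-A. Summed over the 3 genes, the colony-stimulating factors took 206 CPM in untreated cells and 526 CPM in BLA-A.

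Il1a encodes interleukin-1α, an alarmin that induces other cytokines and chemokines through Il1r1 (chr2:129140291-129152098, - strand). Its level was 54.4 CPM in untreated cells, 64.2 in BLA, 106 in BLA-A, 54.3 in BLU and 46.3 in BLU-A. The BLA-A log2 fold change of 0.96 (0.87 to 1.06) lay just under the threshold of 1 used here to count a change, as Csf2 at 1.01 lay just past it. Il6, an inducer of STAT3 signalling (chr5:30218112-30224979, + strand), had 23 counts in untreated cells, 0 in BLA, 7 in BLA-A, 0 in BLU and 9 in BLU-A. Against a floor of 3 counts per library, the 23 counts stood for 7.83-fold less Il6 in BLA and 7.92-fold less in BLU. The exact interval, which also holds the error of the 23 counts, put Il6 at least 5.87-fold lower in BLA and at least 5.94-fold lower in BLU. The ratio to untreated cells was 0.350 in BLA-A (log2 counting interval -2.98 to -0.25) and 0.394 in BLU-A (-2.64 to -0.18). Il6 was therefore below its untreated level in each treated library, at counts of at most 23.

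Ccl2 had the largest difference of the 8 factors that passed the filter (chr11:81926397-81928279, + strand). It was at 3.75 CPM in untreated cells (100 counts), 2.50 in BLA, 27.2 in BLA-A (631 counts), 5.41 in BLU and 4.41 in BLU-A. The log2 fold change was 2.71 in BLA-A, and the ratio of the CPM values without the added 0.5 was 7.27 (log2 interval 2.55 to 3.18). Ccl7, the neighbouring monocyte chemokine (chr11:81936532-81938351, + strand), had 0 counts in untreated cells, 2 in BLA, 18 in BLA-A, 19 in BLU and 0 in BLU-A. By the exact interval it was at least 4.52-fold higher in BLU and at least 5.06-fold higher in BLA-A than in untreated cells (6.13-fold and 6.91-fold for the counts as observed against the floor). The counts of BLU and BLA-A were close for Ccl7 and far apart for Ccl2.

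Ccl20 (chr1:83094487-83096888, + strand) was at 1.24 CPM in untreated cells, 2.90 in BLA, 6.17 in BLA-A, 2.61 in BLU and 0.717 in BLU-A, from 33, 79, 143, 72 and 19 counts. It lay above untreated cells in 3 treated libraries and below them in BLU-A, where the counting interval included 0. Its log2 fold changes were 0.97 in BLA, 1.94 in BLA-A, 0.84 in BLU and -0.51 in BLU-A (-1.68 to 0.07). The ratios of the CPM values without the added 0.5 were 2.35 in BLA, 4.99 in BLA-A, 2.11 in BLU and 0.579 in BLU-A.

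The neutrophil chemokines Cxcl1 and Cxcl5 were within 0.5 of their untreated level on the log2 scale in every treated library. Cxcl1 (chr5:91039094-91040974, + strand) was at 138 CPM in untreated cells, 149 in BLA, 163 in BLA-A, 138 in BLU and 119 in BLU-A. Cxcl5 (chr5:90907186-90909483, + strand) was at 98.9, 106, 101, 95.7 and 71.4 CPM in the same order. The BLA-A log2 fold changes were 0.24 (0.17 to 0.30) for Cxcl1 and 0.03 (-0.05 to 0.11) for Cxcl5, and with scaling by total counts alone the latter turned to -0.17. Both genes were lowest in BLU-A, at -0.22 (-0.29 to -0.15) and -0.47 (-0.56 to -0.38).

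**Figure D2:**
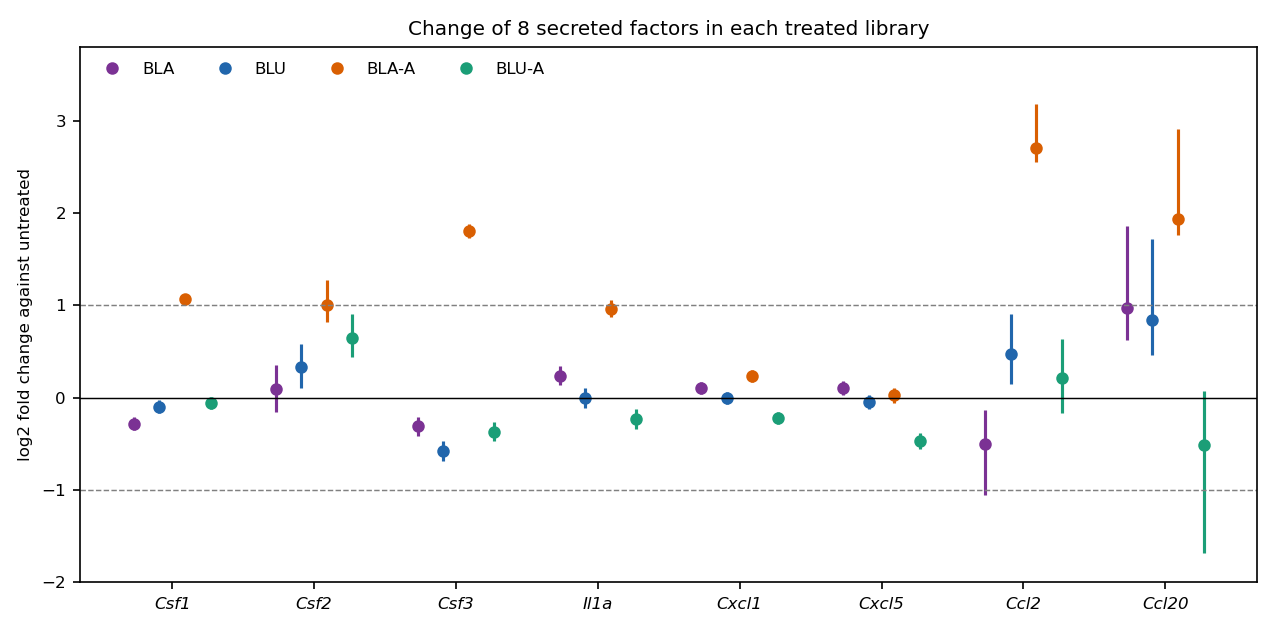
Log2 fold change against untreated cells (y axis, on TMM CPM plus 0.5) of the 8 factors that passed the filter in the 4 treated libraries; vertical lines are exact 95% counting intervals of the ratio without the added 0.5, and dashed lines mark 1 and -1. BLA-A is past 1 for Csf1, Csf2, Csf3, Ccl2 and Ccl20, and no other treatment is.

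In BLA-A, 5 of the 8 factors (Csf1, Csf2, Csf3, Ccl2 and Ccl20) were past a log2 fold change of 1, all higher, where 8.57% of the 17647 genes were past 1 in that direction and 12.4% in the other. The median of the 8 was 1.04 beside -0.01 over all genes. In BLA 0 of the 8 were past 1 (background 7.94% higher and 8.52% lower), in BLU 0 (5.67% higher and 4.6% lower) and in BLU-A 0 (3.35% higher and 4.5% lower). The medians of the 8 were 0.10, -0.00384 and -0.22 in these treatments, so the difference from untreated cells was seen in the BLA-A library. The TMM factor of BLA-A was 0.904 against 1.01 to 1.03 in the other libraries, and scaling by total counts alone left 3 of the 8 past 1 (Csf3, Ccl2 and Ccl20), with Csf1 at 0.87 and Csf2 at 0.82.

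**Figure D3:**
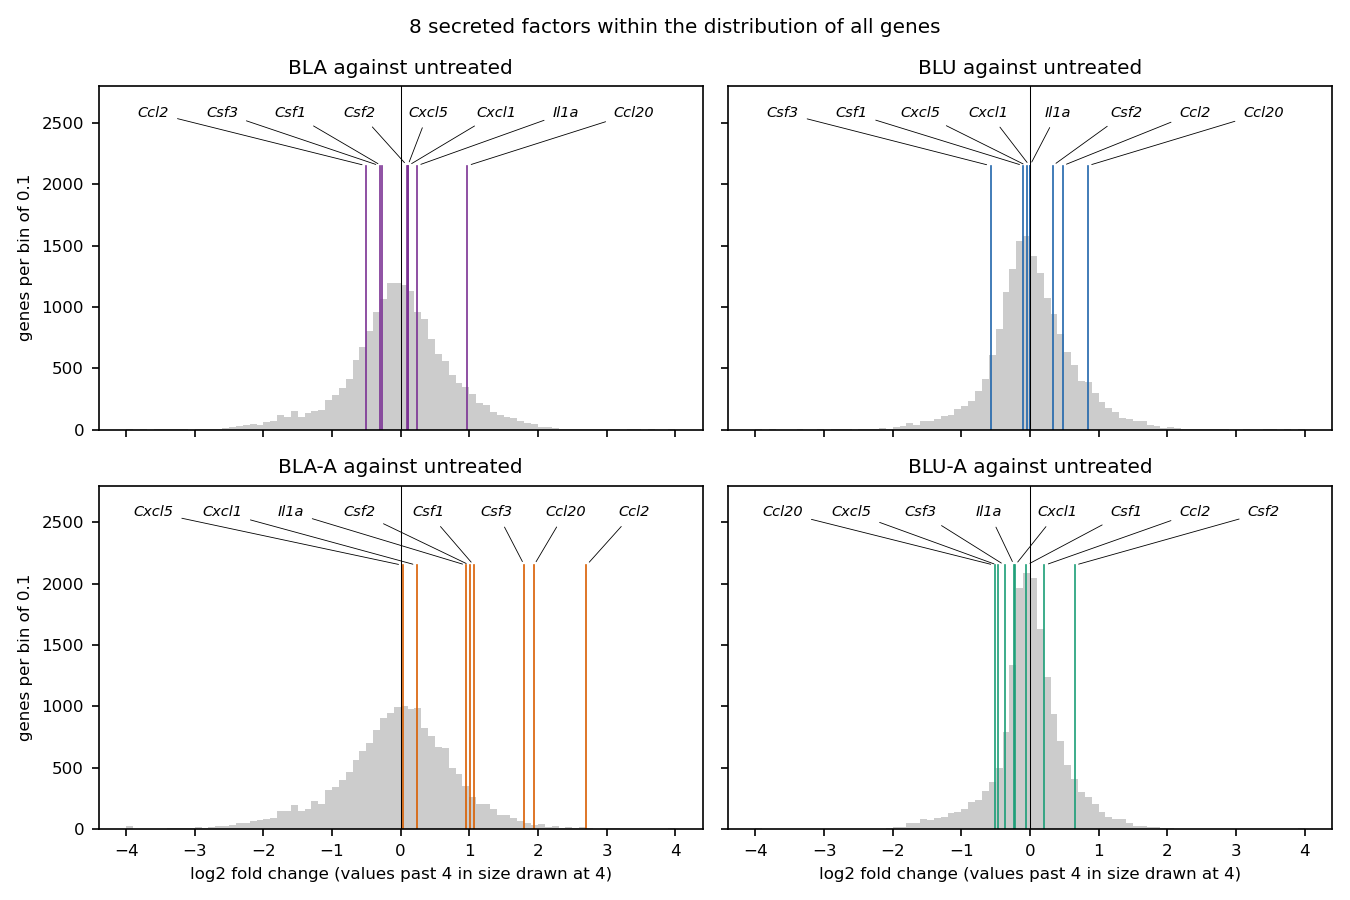
Histograms of the log2 fold change of 17647 genes in each treated library (x axis, bins of 0.1; y axis, genes per bin), with a coloured line for each of the 8 factors. In BLA-A the lines of Ccl2, Ccl20 and Csf3 lie in the upper tail, and in BLA, BLU and BLU-A the lines lie within 1 of 0.

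Gene properties moved with the BLA-A difference. Across 16394 genes with the values (92.9% of those tested), its log2 fold change had a Spearman correlation of 0.235 with transcript GC content and of -0.204 with the length of the gene on the genome. After these properties and transcript length were fitted over all genes and the fitted part was removed, 3 of the 8 factors stayed past 1 (background 8.28% higher), Ccl2 at 2.68, Ccl20 at 2.00 and Csf3 at 1.43. Il1a was then at 0.99, Csf2 at 0.97 and Csf1 at 0.85. Csf3 and Csf1 were among the GC-richer genes, at 56.6% and 54.4%, and Ccl2 and Ccl20 among the GC-poorer, at 43.4% and 40.5%. The part of RNA or library quality in these relations was not tested. Values of the related gene lists below are given without this adjustment.

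The nanoparticles were then set against the extract of the same berry. Without a condition of gold alone, this comparison cannot separate the gold from other differences between the formulations. In BLA-A against BLA, 3 of the 8 factors were past 1, all higher (background 11.6% higher and 12.9% lower): Ccl2 at 3.21, Csf3 at 2.11 and Csf1 at 1.35. Ccl20 was at 0.97, Csf2 at 0.91 and Il1a at 0.72, while Cxcl1 was at 0.13 and Cxcl5 at -0.07. In BLU-A against BLU, 1 of the 8 was past 1, Ccl20, which was lower at -1.35 (counting interval -2.68 to -1.12; background 2.87% higher and 3.89% lower). Csf1, Csf2 and Csf3 were at 0.04, 0.32 and 0.21 there, and Ccl2 at -0.27 (-0.65 to 0.07). With a pseudocount of 2 CPM, Ccl20 moved to -0.76. Between berries, 3 of the 8 (Ccl20, Il1a and Cxcl1) were higher in the nanoparticle than in the extract library for blackberry and lower for blueberry, with both counting intervals clear of 0 (7.46% of all genes), and 0 of the 8 were the other way round (8.19%). For the genes under the filter, Ccl7 was at least 4.49-fold lower in BLU-A than in BLU by the exact interval (6.09-fold against the floor), and Il6 was at least 2.05-fold higher (3.12-fold).

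A further 3 comparisons set groups of libraries against each other in edgeR's quasi-likelihood test, with the spread taken from libraries of different treatments. For the 4 treated libraries against the untreated one, 4 of 17647 genes passed at an adjusted p under 0.05 (0.0227%), and 481 did so before adjustment. Each of the 8 factors had an adjusted p = 0.999. Ccl2 had the largest fitted log2 difference, 1.39 ± 1.29 (SE), followed by Ccl20 at 1.32 ± 1.12. For the nanoparticle libraries against the extract libraries, 0 genes passed (0%), 1058 had an unadjusted p under 0.05, and DESeq2's Wald test called 36. Csf3 and Ccl2 were the factors with an unadjusted p under 0.05, with log2 differences of 1.53 ± 0.61 and 2.00 ± 0.83 and an adjusted p = 0.702 each. Without the BLU-A library, which left BLA-A as the only nanoparticle library, the log2 differences of Csf3 and Ccl2 were 2.35 and 2.89. Without the BLA-A library they were 0.07 and 0.16.

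For the blackberry libraries against the blueberry ones, 0 genes passed (0%), 674 had an unadjusted p under 0.05, and DESeq2's Wald test called 27. Csf3, at 1.58 ± 0.60, and Il1a, at 0.76 ± 0.32, were the factors with an unadjusted p under 0.05 (adjusted p = 0.947). Without the BLA library, which left BLA-A as the only blackberry library, the log2 differences of Csf3 and Il1a were 2.27 and 1.07. Without the BLA-A library they were 0.16 and 0.35. The size of these differences therefore depended on BLA-A and on which libraries were set beside it.

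Few receptors for these factors were detected in the 4T1 cells themselves. Of 17 receptor genes 6 passed the filter, and 0 of the 6 were past 1 in BLA-A. Il6st, the shared signal-transducing chain of the Il6 family, was the highest per kb, at 220 CPM in untreated cells and 272 in BLA-A, and Il1r1, the receptor for Il1a, was at 68.2 and 50.3 CPM. Il1rap, its accessory chain, was at 50.4 and 95.8 CPM. Csf2rb, the common β chain for Csf2, was at or under 1.47 CPM in every library, and its BLU log2 fold change was -1.04. Of 8 extracellular and signal inhibitors 6 passed, with 1 past 1 in BLA-A, the decoy receptor Il1r2 at -1.11 (from 18 counts to 1), where 12.4% of all genes were past 1 in that direction. Socs1 and Socs3, feedback inhibitors of cytokine signalling, were at 0.96 and 0.67. Il18bp, a secreted inhibitor of Il18, was at 2.29 CPM in untreated cells and past 1 in BLA (1.48), BLU (1.27) and BLU-A (1.02), but not in BLA-A (0.55).

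Some other chemokines of the CXC and CX3C families were higher in BLA-A. Of 14 listed genes 6 passed the filter, and 5 of the 6 were past 1, all higher (8.57% of all genes), with a median of 1.76, while Cxcl17 was at 0.04. In BLA 2 of the 6 were past 1, both higher (7.94% of all genes), in BLU 1, also higher (5.67%), and in BLU-A 0. Cxcl2, Cxcl3 and Cxcl17 were under 1 CPM in untreated cells and passed the filter only through treated libraries. With 0.5 added to CPM, Cxcl2 and Cxcl3 could not fall past -1, so they could only be counted as higher. The membrane-bound chemokines Cx3cl1 and Cxcl16 went from 87.7 to 200 CPM (log2 fold change 1.18) and from 48.9 to 143 CPM (1.54). The interferon-induced Cxcl10 went from 2.17 to 10.1 CPM (1.98), and the Cxcr2 ligands Cxcl2 and Cxcl3, which lie beside Cxcl1 and Cxcl5 on chromosome 5, from 0.30 to 3.54 (2.34) and from 0 to 1.94 CPM. Of 17 other CC and C chemokines 3 passed and 0 were past 1. Ccl5, a chemokine for T cells and monocytes, was at 7.01 CPM in untreated cells and 12.2 CPM in BLA-A (0.75).

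Of 28 other cytokines 19 passed the filter, and 9 were past 1 in BLA-A, all higher, where 8.57% of all genes were. The counts for BLA, BLU and BLU-A were 4, 3 and 2, also all higher, where 7.94%, 5.67% and 3.35% of all genes were. Of the genes past 1, Il3, Il10, Ctf1 and Il33 were under 1 CPM in untreated cells and passed the filter only through treated libraries. With the constant added to CPM, Il3 and Il10 could not fall past the threshold, so they could only be counted as higher. Both were among the genes counted in BLA and BLU, and Il3 was among those in BLU-A. Lif, a STAT3-activating cytokine of the Il6 family, was at 51.4 CPM in untreated cells and 180 in BLA-A (1.80), and the Il10-family cytokine Il24 reached 13.5 CPM (2.13). Mif, a macrophage cytokine (1.51), the angiogenic factor Vegfa (1.42), Tgfb1 (1.35), Ctf1 (1.71) and the epithelial alarmin Tslp (1.07) were also past 1. Il3, which lies next to Csf2 on chromosome 11, followed another pattern, at 0.07 CPM in untreated cells, 3.71 in BLA, 0.09 in BLA-A, 0.73 in BLU and 1.09 in BLU-A. The anti-inflammatory cytokine Il10 was past 1 in BLA (1.73) and BLU (1.19) but not in BLA-A (-0.05), from 4 counts in untreated cells and 45, 27 and 3 in these libraries.

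Among 20 NF-κB subunits, feedback inhibitors and targets, all of which passed the filter, 5 were past 1 in BLA-A, all higher (8.57% of all genes higher and 12.4% lower), and 0 in the other treatments. These were the early response gene Ier3 (2.68), the prostaglandin synthase Ptgs2 (1.45), and the IκB family members Nfkbib (1.32), Nfkbia (1.12) and Nfkbiz (1.03), while the subunit Rela was at 0.69. Of 13 AP-1 and C/EBP factors 12 passed and 6 were past 1 in BLA-A, all higher (again beside 8.57%). Cebpb, a factor for Csf3 and Il6 transcription, was at 14.5 CPM in untreated cells, 11.4 in BLA, 235 in BLA-A, 14.3 in BLU and 10.9 in BLU-A, a log2 fold change of 3.97 in BLA-A. Fos was at 2.20, Atf3 at 1.74, Junb at 1.62 and Jund at 1.57, and in BLA Atf3 was past 1 (1.21) and Batf3 past -1 (-1.28). Jun and Fosl1, the highest of the list per kb, were at 0.13 and 0.24. Among 10 genes of AU-rich element binding and cytokine mRNA decay, 2 were past 1 in BLA-A, both higher, where 8.57% of all genes were: Zfp36 at 2.27, from 37.9 to 185 CPM, and the endonuclease Zc3h12a at 1.08. The decay and RNA-binding factors Khsrp, Zfp36l1 and Zfp36l2 were at 0.63, 0.79 and 0.60, and Hnrnpd was at -0.62.

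**Figure D4:**
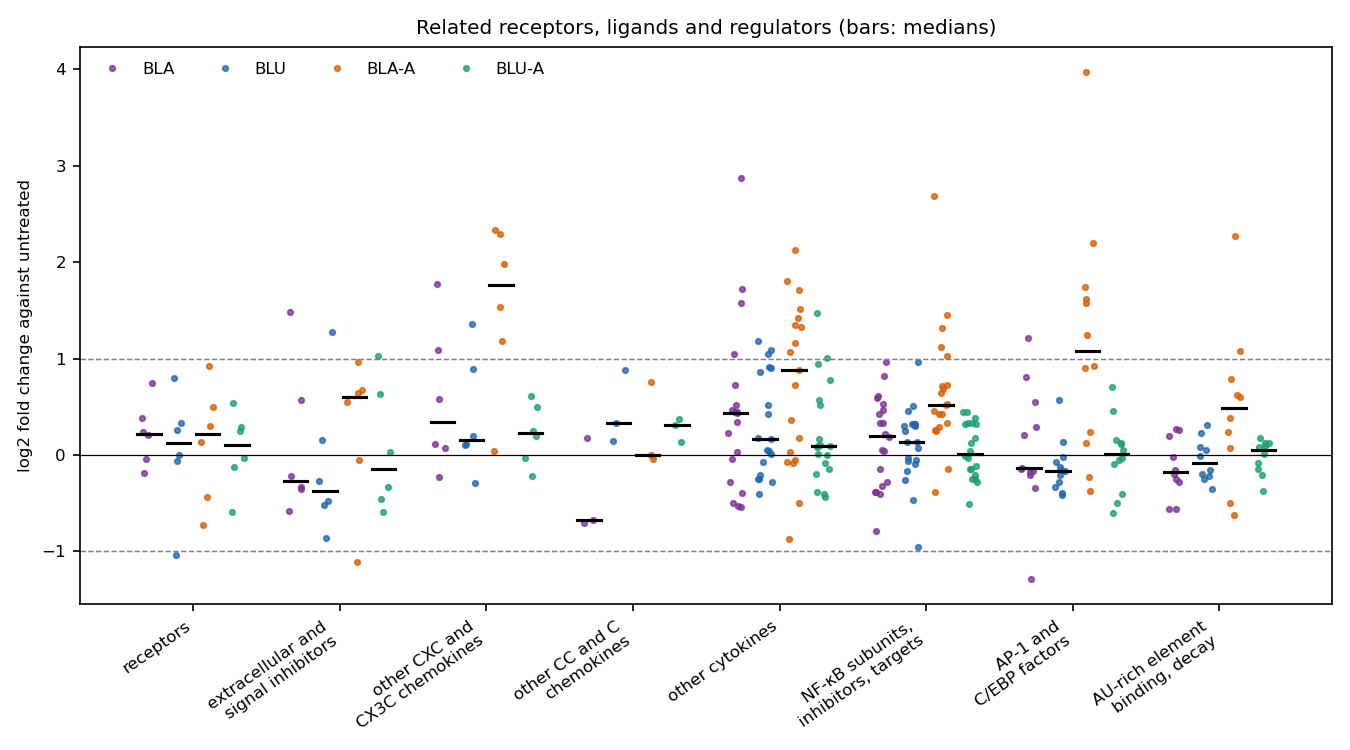
Log2 fold change against untreated cells (y axis) of the genes of 8 lists that passed the filter (points, spread sideways for legibility) in the 4 treated libraries, with black bars for medians and dashed lines at 1 and -1. The BLA-A medians are 1.76 for other CXC and CX3C chemokines and 1.08 for AP-1 and C/EBP factors, and the highest point is Cebpb at 3.97. The median of 1.76 is over 6 genes, of which Cxcl2, Cxcl3 and Cxcl17 passed the filter only through treated libraries.

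The genes nearest to a factor in pattern were found by the distance between their 4 log2 fold changes against untreated cells, over 15157 genes and 5 libraries. For Csf3 they were Tmem106b (distance 0.198), Calr (0.249) and 2510039O18Rik (0.298), for Csf2 they were Ubl7, Mapk7 and Tent5b, for Ccl2 they were Elf3, Nphs1 and Aanat, and for Ccl20 they were Gm33887, Marchf9 and 1700110K17Rik. For Csf1 they were Gm40121 (0.0714), Rcc2 (0.0950) and Cnpy3 (0.120). Gm40121 is a long non-coding RNA gene of the + strand (chr3:107603741-107763874) that spans the whole of Csf1.

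The counts of Gm40121 were close to those of Csf1 in every library, at 3648 against 3477 in untreated cells, 3168 against 2923 in BLA, 3594 against 3363 in BLU, 6457 against 6336 in BLA-A and 3542 against 3325 in BLU-A. They were 102% to 108% of the Csf1 count. Il1a showed the same, since Gm14023 on the opposite strand (chr2:129139285-129217678) had 92.3% to 97.9% of the Il1a count. Gm38985, which overlaps all of Csf3 on the opposite strand (chr11:98586844-98595267), had 17.7% to 26.9% of the Csf3 count. Reads of Csf1 and Il1a and of these opposite-strand genes therefore cannot be told apart with certainty. The opposite-strand counts moved with the factor, from 3648 to 6457 for Gm40121 and from 1422 to 2352 for Gm14023 between untreated and BLA-A cells. Opposite-strand genes are also annotated over Csf2 (Gm57329), Il6 (Gm42450) and Cxcl5 (Gm72413), and these are not analysed here, while Cxcl1, Ccl2, Ccl7 and Ccl20 have none.

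**Figure D5:**
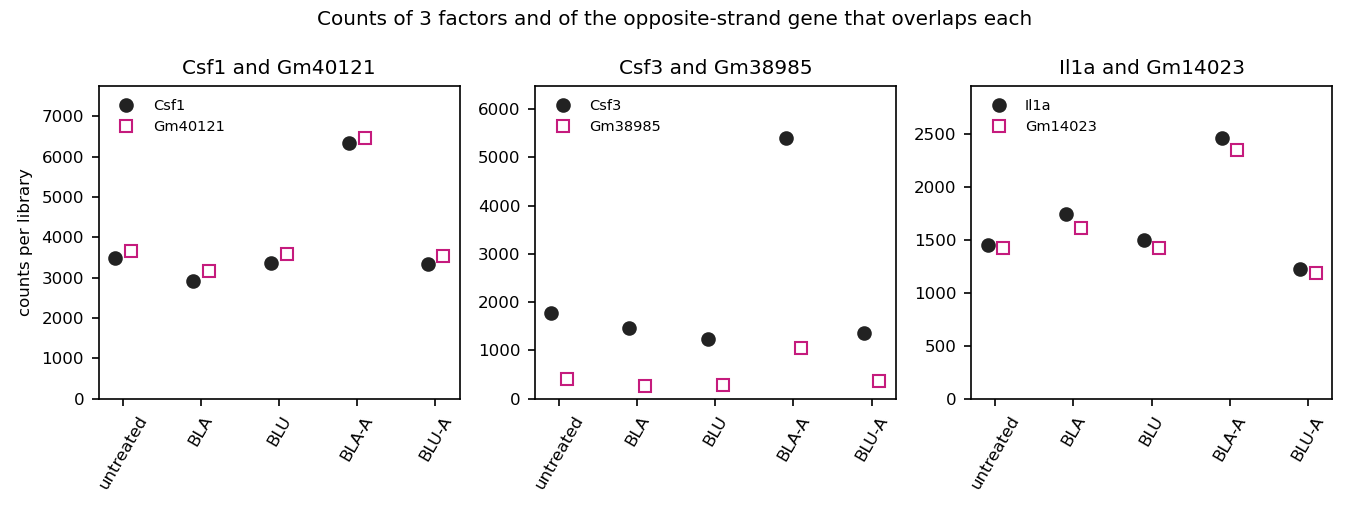
Counts per library (y axis, linear from 0) of Csf1, Csf3 and Il1a (filled circles) and of the opposite-strand gene that overlaps each (open squares) in the 5 libraries (x axis). The squares of Gm40121 and Gm14023 lie on or near the circles of Csf1 and Il1a, and those of Gm38985 lie at 17.7% to 26.9% of Csf3.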

How the data were processed

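RNA of untreated and treated 4T1 cells was measured by bulk RNA-seq. The authors removed ribosomal RNA, aligned reads to GRCm39 with STAR and counted them in OmicsBox on whole genes with a forward-strand setting. They deposited raw counts per gene for 40402 genes in 15 columns, 3 per condition, without normalization. The submitters' processing notes also name DESeq2 1.36.0. Deposited tables of the authors' own fold changes and p-values and of gene set enrichment were not used. The duration of exposure is not given in the sources used here.

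The 10 genes, the 8 related lists (127 genes) and the marker lists were chosen with earlier results of these data known. The 3 columns of a condition were compared by chi-square (genes averaging 10 counts or more), and columns under 1.5 per degree of freedom were averaged, rounded and used as 1 library, which held for all 5. The filter asked for 1 CPM or more in any of the libraries. TMM factors from edgeR 4.0.16 scaled the counts, 0.5 was added to CPM before the logarithm, and differences past 1 on the log2 scale, in either direction, were counted. Counting intervals are exact at 95% (binomial for ratios, Poisson for levels), and a count of 0 was bounded by 3 counts per library. Group comparisons used the quasi-likelihood test of edgeR at 0.05 after Benjamini-Hochberg adjustment. Only the comparison of treated with untreated libraries was also run on simulated data, and the other group comparisons were not. DESeq2 1.42.0, other scalings, pseudocounts and filters, leaving out columns or libraries, and a fit on the 15 columns were alternatives, and an adjustment for GC content and gene length was chosen after seeing the data. Named genes of a list are the 4 highest per kb in untreated cells and up to 6 with the largest change past 1, and the genes nearest in pattern have a mean of at least 1 CPM. The opposite-strand genes were chosen after their values were seen. Positions and exon lengths are from GENCODE M39 on GRCm39. R 4.3.3 and Python were used.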

Additional observations from a re-analysis of the deposited data

Results flagged for a closer look

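In 3 of the 8 factors that passed the filter, the nanoparticle library stood above the extract library for blackberry and below it for blueberry, with both counting intervals clear of 0, where 7.46% of the 17647 genes did so. Ccl20 had log2 fold changes of 0.97 in BLA-A against BLA and -1.35 in BLU-A against BLU, Il1a had 0.72 and -0.23, and Cxcl1 had 0.13 and -0.21. With 1 library per condition the difference between berries was not tested. Under scaling by total counts alone, Cxcl1 in BLA-A against BLA was at -0.03. Its lowest value under the 10 alternatives was -0.11, and 8 of the 10 were above 0.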

How the results depend on the processing

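The limit throughout is 1 library per condition, and depth mainly limits Il6 and Ccl7. Under 10 alternatives, Csf3 and Ccl2 in BLA-A against untreated cells stayed past 1 with log2 fold changes of 1.43 to 1.89 and 2.35 to 2.83, and Ccl20 with 1.34 to 2.23. Csf1 ranged from 0.85 to 1.16 and Csf2 from 0.82 to 1.10. No log2 fold change past 1 changed sign. Of 480 values of single factors under an alternative, 462 stayed on their side of 1, 10 moved past it and 8 moved below it. Among the 10 alternatives, 3 only left out 1 column number. Since the averaged columns count as 1 library, these 3 cannot check a fold change against another library. Their values are part of the 480, so the 462 are no measure of stability between libraries. The count of factors past 1 in BLA-A against untreated cells, 5, became 3 with scaling by total counts alone and 3 with the adjustment for GC content and gene length, 4 with a pseudocount of 2 CPM and with at least 10 counts required in every library, 6 with DESeq2 size factors and 7 of 10 with no filter, and was 4 to 5 when 1 column number was left out. In BLA against untreated cells, 0 became 1 with a pseudocount of 0.1 CPM, with no filter and with the adjustment. In BLU against untreated cells, 0 became 1 with a pseudocount of 0.1 CPM and 2 with no filter. With no filter, which adds Il6 and Ccl7, 3 became 5 in BLA-A against BLA and 1 became 2 in BLU-A against BLU, and a pseudocount of 2 CPM made the latter 0.

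In the comparisons of groups, the treated libraries against the untreated one gave 4 called genes, 2 with at least 10 counts required in every library, 17 with DESeq2's Wald test, and 3 to 45 when 1 treated library was left out (45 without BLA-A). Nanoparticles against extracts gave 0, 36 with DESeq2's Wald test, 554 with no filter (Csf3 and Ccl2 among them) and 1 to 4224 when 1 library was left out. Blackberry against blueberry gave 0, 27 with DESeq2's Wald test, 289 with no filter (Csf3 among them) and 20 to 5054 when 1 library was left out. The fits with no filter tested more genes than the main fits, so their counts of called genes have another base. The cause of the changes between these fits was not tested. Leaving out a library leaves few degrees of freedom, and a lone library is then assumed to vary like the others.

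Same-numbered columns deviated from their condition means with a mean correlation of -0.000893 over 30 pairs, so the numbers do not pair the samples. The 15 columns were also entered separately, although they are not separate samples. Of 17647 genes, the fits called 3553, 8909 and 6928 for the 3 comparisons without the replicate block and 2498, 7744 and 5617 with it. The same number of the 8 factors was called with and without the block: 0 for treated against untreated, 4 for nanoparticles against extracts and 5 for blackberry against blueberry.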
